A study of Mus musculus with 4 samples.

Results

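The 38 genes described here carry cells through G2 and mitosis: Cdk1 with its cyclins and activators, the mitotic kinases, the spindle checkpoint, the kinetochore, the spindle motors and the proteins of cell cleavage. They were listed by function. Of the 18194 genes named on the array, 37 were on this list, while Ccnb1, a mitotic cyclin gene, had no probe set named here and was not analysed. Where a gene had several probe sets, the one brightest on average (mean log2 signal) stood for it.

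Entry into mitosis is driven by Cdk1 bound to cyclins of the A and B types, which Cdc25 phosphatases switch on. Kinetochores then attach the chromosomes to the spindle, the checkpoint holds back the anaphase-promoting complex until attachment is complete, and destruction of cyclin B and securin lets the chromosomes part and the cell cleave. The 3T3-L1 line came from mouse embryo fibroblasts and turns into fat cells when induced with hormones. Its growth-arrested preadipocytes re-enter the cell cycle soon after induction, a phase known as mitotic clonal expansion.

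Expression was measured in 3T3-L1 cells under 4 conditions, with 1 array each: aof2 siRNA, rfk siRNA, tranylcypromine and control siRNA (siGL3). The siRNAs were transfected 24 h before induction with insulin, dexamethasone and isobutylmethylxanthine, and the RNA was taken 24 h after induction. Tranylcypromine was given with the induction medium. For it the labels name neither an siRNA, a dose nor a vehicle, so that against the control array the drug and any difference in transfection cannot be told apart. Aof2, now named Kdm1a, encodes the histone demethylase LSD1, which uses flavin adenine dinucleotide, Rfk encodes riboflavin kinase, which feeds flavin synthesis, and tranylcypromine inhibits LSD1 and monoamine oxidases.

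The values are MAS5 signals, a linear intensity per probe set that the authors scaled array by array. Kdm1a had a signal of 681 with aof2 siRNA, against 3494 with control siRNA, and Rfk one of 573 with rfk siRNA, against 2122 with control siRNA. The poly-A control transcripts lay above the control array by a mean log2 difference of 0.29 with aof2 siRNA and 0.17 with rfk siRNA, and by -0.01 with tranylcypromine, over 24 probe sets. The 3' over 5' signal ratio of Gapdh was 0.836 to 0.841 on the other 3 arrays and 0.834 on the control array. All 9 fibroblast and preadipocyte markers passed the filter on signal described below, with summed signals of 108644 with aof2 siRNA, 108714 with rfk siRNA and 106025 with tranylcypromine, against 105280 with control siRNA. Of 8 named adipocyte markers 6 passed it, while Adipoq and Cidec, which mark mature fat cells, lay below it. The signals of all 8 summed to 6658, 7064 and 6099 in that order, against 9184 with control siRNA. Of 6 macrophage markers Csf1r and Cd14 passed, and the sums over all 6 were 519, 339 and 634, against 463 with control siRNA. Of 5 endothelial markers Kdr alone passed, at 57.7, 69.3 and 70.5, against 29.0 with control siRNA, and the sums over all 5 were 93, 94 and 117, against 61 with control siRNA. Of 5 epithelial markers Epcam and Krt19 passed, and the sums over all 5 were 619, 387 and 748, against 368 with control siRNA. The brightest markers carry such sums, and single markers ran both ways. In log2 difference from control, in the same order, Col1a1 was at -0.55, -1.01 and -0.98 and Pdgfra at 0.46, 0.26 and 0.21. Fabp4 was at -0.92, -1.64 and -1.17 and Cebpa at 0.56, 0.03 and 0.28. The part of these marker differences in the results below was not tested.

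With aof2 siRNA the G2 and mitosis genes lay below control almost without exception, by small and similar amounts. Of the 37 genes 34 were lower, with a median log2 difference of -0.29 and an interquartile range of -0.43 to -0.18. A filter kept the 10788 genes at or above the middle of all probe sets in mean log2 signal, which is a signal of 50.9. Among these, 50.7% were lower and the median was -0.004. All 37 passed this filter, and 36 reached the 75th percentile, a signal of 414. Of the 6873 genes that bright, 54.5% were lower. With each array centred on its median, 35 of the 37 genes and 61.9% of all genes compared were lower, the median of all genes then being -0.081 and that of the list -0.37. The exceptions above control were Nusap1 and Nuf2, with Cdc25b level at 0.01. The poly-A controls, the Actb ratio and the adipocyte marker sum also differed on this array, as given above, and their part in the result was not tested. In bulk RNA, fewer cycling cells and less of these transcripts per cell cannot be told apart.

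With rfk siRNA the same genes stayed near control. Of the 37 genes 21 were lower, with a median of -0.03, and 36 lay within 0.32 of control on the log2 scale. Over all genes compared, 51.5% were lower (52.4% of bright ones) and the median was -0.009. With tranylcypromine the list lay between these: 29 of 37 were lower, with a median of -0.15, against 52.0% of all genes (53.3% of bright ones) and a median of -0.016. The 3 comparisons share the control array. With 1 array per condition no test was possible, and all values are single measurements whose number limits the precision.

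**Figure D1:**
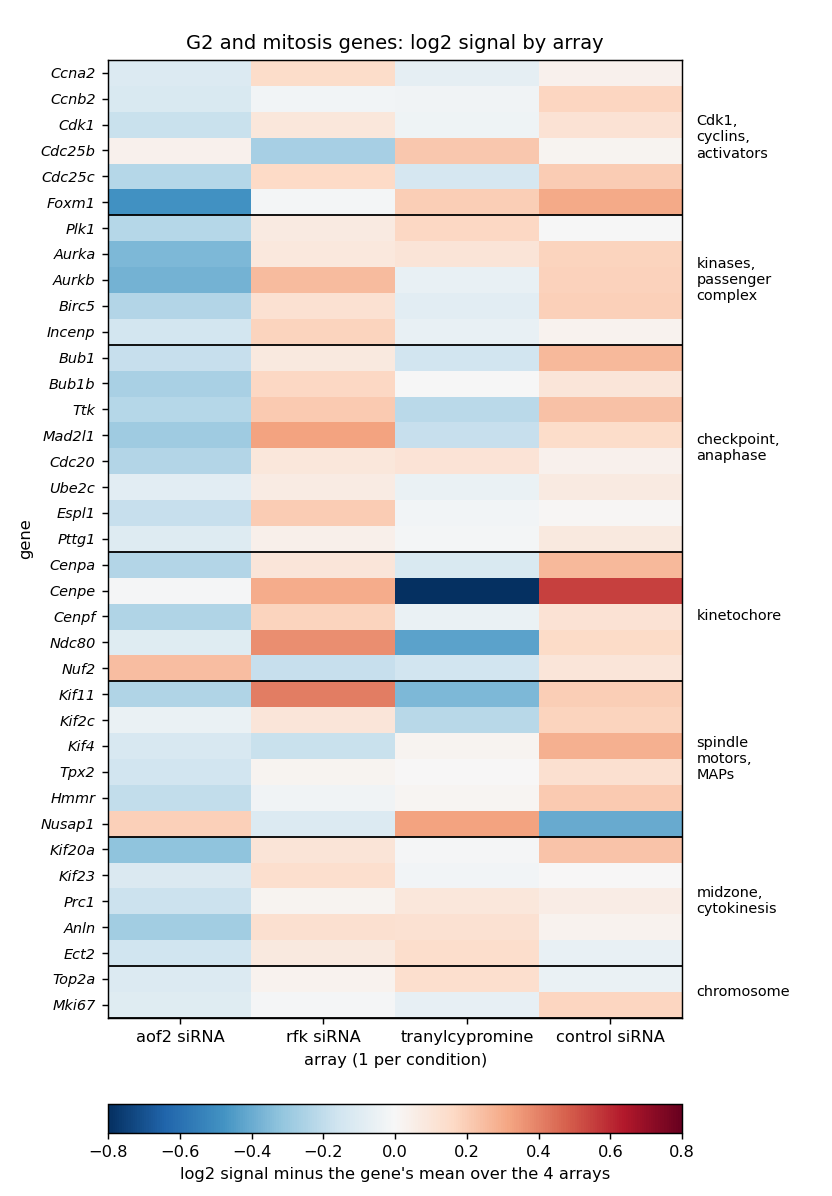
Log2 signal of the 37 measured G2 and mitosis genes (rows, grouped by role) on the 4 arrays (columns), each minus the gene's mean over the 4 arrays; blue is lower and red higher. The aof2 siRNA column is the bluest in 29 of 37 rows, Cenpe, Ndc80, Kif11 and Kif2c are lowest with tranylcypromine, and Nusap1 is lowest with control siRNA.

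Large single differences were few. With aof2 siRNA 1 gene, Foxm1, was at least 1.5-fold lower, or 1 of 37 against 2.88% of all genes, and 1, Nusap1, was at least 1.5-fold higher, against 6.26% of all genes. With rfk siRNA 0 genes reached 1.5-fold in either direction, against 3.8% lower and 3.92% higher over all genes. With tranylcypromine Cenpe and Ndc80 were at least 1.5-fold lower, against 4.77% of all genes, and Nusap1 at least 1.5-fold higher, against 7.48%. By at least 0.32 on the log2 scale, a smaller threshold, 16 of 37 genes were lower with aof2 siRNA, against 11.3% of all genes and 8.42% of bright ones. With rfk siRNA 1 was, against 12.2% of all genes and 7.97% of bright ones. With tranylcypromine 9 were, against 15.5% and 11.5%.

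**Figure D2:**
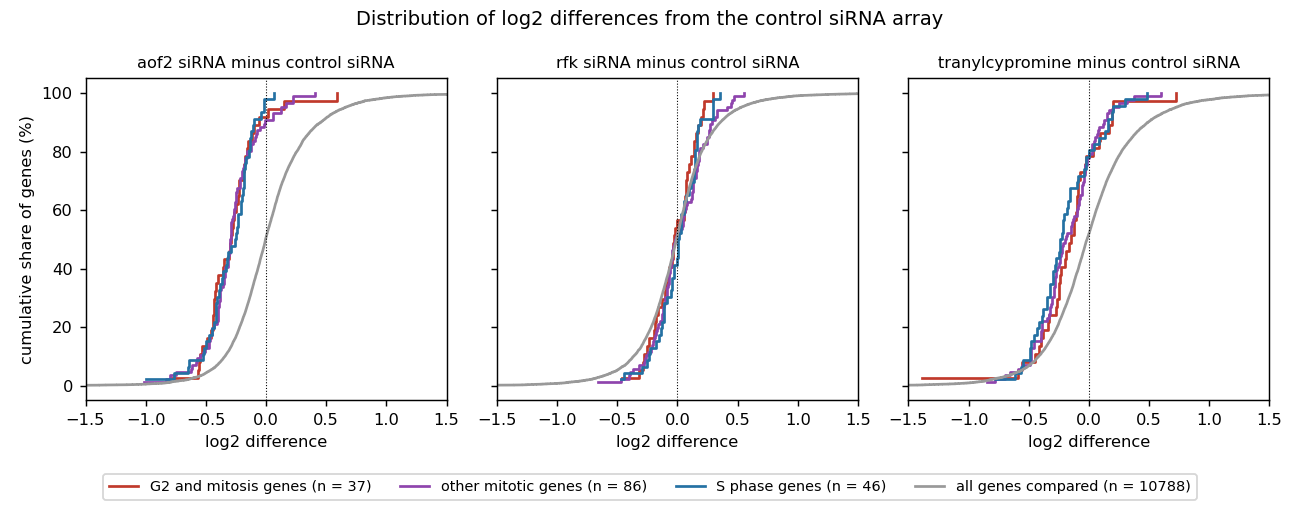
Cumulative share of genes (vertical, %) at or below each log2 difference from the control siRNA array (horizontal), for aof2 siRNA, rfk siRNA and tranylcypromine. With aof2 siRNA the curves of the 37 G2 and mitosis genes, 86 other mitotic genes and 46 S phase genes lie left of the 10788 genes compared, with rfk siRNA they run with them, and with tranylcypromine they lie left of it by less.

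Promoters of G2 and mitosis genes are known to share a cell cycle genes homology region (CHR), bound by the DREAM and MuvB complexes, and CCAAT boxes, bound by the factor NF-Y. RefSeq promoter windows of GRCm38.p6, 250 bases before to 50 bases after each start, were found for 31 of the 38 genes. The CHR letters searched were TTTGAA and TTCGAA, and the box was CCAAT, each on both strands; the letters of the 2 kinds do not contain each other, though sites could lie side by side. A CHR was found in 24 of 31 genes (77.4%), against 16.0% of 8778 compared genes with a window, and a CCAAT in 23 (74.2%), against 43.4%. Both were found in 21 (67.7%), against 6.54%. In S phase genes the shares were 16.7% for CHR, 61.1% for CCAAT and 13.9% for both, over 36 genes. In the other mitotic genes described below they were 58.3%, 66.7% and 40.3%, over 72 genes, so the letters were not particular to this list. The 21 genes with both had a median log2 difference of -0.29 with aof2 siRNA and 20 were lower, while the 9 measured genes without both had -0.25 and 7 were lower. With rfk siRNA the medians of these 2 sets were -0.02 and -0.03. With tranylcypromine the order was the other way, at -0.12 with both and -0.28 without both. A match is a description of letters and not a bound site.

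The upstream parts of 4 promoters are shown because they hold both kinds of letters before the start, in the order of their difference with aof2 siRNA, and that of Nusap1 because this gene lay on the other side of control. Capitals mark the CHR and CCAAT letters on either strand, and each runs 5′ to 3′ along its gene. They lie at chr19:37376132-37376381 on the plus strand (Kif11), chr2:118597961-118598210 on the plus strand (Bub1b), chr9:70421555-70421804 on the minus strand (Ccnb2), chr10:69352913-69353162 on the minus strand (Cdk1) and chr2:119618048-119618297 on the plus strand (Nusap1).
Kif11: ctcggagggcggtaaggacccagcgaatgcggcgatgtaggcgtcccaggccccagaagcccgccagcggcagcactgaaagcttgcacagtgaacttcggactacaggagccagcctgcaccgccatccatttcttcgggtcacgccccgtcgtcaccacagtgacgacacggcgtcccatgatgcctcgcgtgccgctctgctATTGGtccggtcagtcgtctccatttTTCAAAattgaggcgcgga
Bub1b: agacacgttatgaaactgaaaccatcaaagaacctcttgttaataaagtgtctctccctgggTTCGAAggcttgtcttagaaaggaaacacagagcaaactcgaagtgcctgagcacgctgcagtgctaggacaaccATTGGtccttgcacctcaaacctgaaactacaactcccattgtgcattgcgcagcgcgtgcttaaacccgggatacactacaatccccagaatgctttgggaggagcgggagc
Ccnb2: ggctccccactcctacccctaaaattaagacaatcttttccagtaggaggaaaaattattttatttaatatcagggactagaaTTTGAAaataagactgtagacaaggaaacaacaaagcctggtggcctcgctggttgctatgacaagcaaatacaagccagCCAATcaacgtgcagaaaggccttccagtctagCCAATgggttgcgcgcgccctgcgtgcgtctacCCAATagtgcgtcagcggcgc
Cdk1: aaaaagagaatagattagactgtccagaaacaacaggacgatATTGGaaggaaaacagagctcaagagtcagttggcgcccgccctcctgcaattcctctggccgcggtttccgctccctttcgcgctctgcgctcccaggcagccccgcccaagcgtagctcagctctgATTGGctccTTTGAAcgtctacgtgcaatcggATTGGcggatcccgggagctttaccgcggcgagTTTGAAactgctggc
Nusap1: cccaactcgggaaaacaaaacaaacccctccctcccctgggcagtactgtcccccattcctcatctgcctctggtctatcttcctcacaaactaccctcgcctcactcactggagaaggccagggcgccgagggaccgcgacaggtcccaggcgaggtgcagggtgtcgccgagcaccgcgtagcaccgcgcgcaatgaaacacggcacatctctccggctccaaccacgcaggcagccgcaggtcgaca
The Cdk1 stretch held 2 CHR and 3 CCAAT matches and that of Ccnb2 1 and 3, with the CCAAT matches of Ccnb2 beginning 87, 54 and 21 bases before the start. In Kif11 the CHR began 19 bases before it. The Nusap1 stretch held 0 of either kind, which says only that these letters are not in this stretch.

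Among Cdk1, its cyclins and activators, 5 of 6 measured genes were lowest with aof2 siRNA. Cdk1, the kinase that starts mitosis, had signals of 4385 with aof2 siRNA, 5277 with rfk siRNA and 4847 with tranylcypromine, against 5378 with control siRNA, so it was highest in the control array and the log2 difference with aof2 siRNA was -0.29. Ccnb2, a cyclin B gene, had 2851, 3059 and 3049 in the same order, against 3502 with control siRNA, and all 3 lay below it. Cdc25c, a phosphatase that activates Cdk1, had 478, 625 and 509, against 644 with control siRNA. It was low with aof2 siRNA (-0.43) and tranylcypromine (-0.34) and near control with rfk siRNA (-0.04). Its other probe set gave -0.62 with aof2 siRNA, -0.17 with rfk siRNA and -0.12 with tranylcypromine, so only the low value with aof2 siRNA was shared. Foxm1, the transcription factor that drives many genes of this list, had 160, 222 and 257, against 276 with control siRNA. Its difference of -0.78 with aof2 siRNA was the lowest of the list there, and 1.29% of all genes lay lower. Its probe sets did not agree on the size: those above the filter gave -0.78, -0.52 and -0.11 with aof2 siRNA, and the mean of all 4 gave -0.39, under 1.5-fold. With tranylcypromine that mean was 0.40, but it holds a probe set below the filter (mean signal 13.1) that gave 1.80. Those above the filter gave -0.10 (the one used), -0.38 and 0.30. Ccna2, which encodes the cyclin of S phase and G2, stood at -0.15, 0.11 and -0.11 with aof2 siRNA, rfk siRNA and tranylcypromine. Its other probe set, nearly as bright, gave -0.44, 0.03 and -0.20. Cdc25b, the related phosphatase, stood apart at 0.01, -0.29 and 0.19.

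All 5 mitotic kinase and passenger complex genes were below control and lowest of the 4 arrays with aof2 siRNA, with a median of -0.42. Aurkb, the kinase of the passenger complex, which corrects faulty attachments, had signals of 876 with aof2 siRNA, 1353 with rfk siRNA and 1090 with tranylcypromine, against 1293 with control siRNA. A further probe set gave -0.44 with aof2 siRNA where this one gave -0.56. Aurka, the spindle pole kinase, had 1796, 2440 and 2470, against 2603 with control siRNA, so that aof2 siRNA (-0.54) stood apart from the other 3 arrays, which lay within 0.09 of one another. Averaged with a dim probe set below the filter, Aurka gave -0.40 with rfk siRNA and -0.60 with tranylcypromine. Birc5, which encodes survivin of the passenger complex, had 3698, 4729 and 4096, against 4959 with control siRNA. Plk1, a kinase needed from mitotic entry to cleavage, had 928, 1142 and 1220, against 1085 with control siRNA. It was low only with aof2 siRNA (-0.23), and with tranylcypromine it lay above control (0.17). Incenp, the scaffold of the passenger complex, stood at -0.17, 0.15 and -0.09 in the order used above.

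All 8 genes of the checkpoint and of anaphase were below control and lowest with aof2 siRNA, with a median of -0.31. Ttk, the kinase that starts checkpoint signalling, had signals of 834 with aof2 siRNA, 1130 with rfk siRNA and 840 with tranylcypromine, against 1146 with control siRNA. The 4 values formed pairs, aof2 siRNA with tranylcypromine and rfk siRNA with control. A dim further probe set of Ttk did not show these pairs, at 0.36 with aof2 siRNA, 0.49 with rfk siRNA and 0.01 with tranylcypromine. With aof2 siRNA the mean of both was -0.05. Bub1, a checkpoint kinase at the kinetochore, had 2527, 3027 and 2579, against 3435 with control siRNA, a dim further probe set taking its mean with rfk siRNA to -0.58. Mad2l1, which holds back Cdc20, had 5451, 8279 and 5826, against 7347 with control siRNA. Mad2l1 was thus lowest with aof2 siRNA (-0.43) and highest with rfk siRNA (0.17). The other 5 differed from control by -0.36 (Bub1b, a checkpoint kinase relative) to -0.16 (Ube2c, the ubiquitin enzyme of the anaphase-promoting complex) with aof2 siRNA. Cdc20, the activator of that complex, was at -0.26, Espl1, separase, at -0.19 and Pttg1, its inhibitor securin, at -0.18. By the probe sets used, these 5 lay between -0.12 and 0.19 with rfk siRNA and tranylcypromine. With tranylcypromine, further probe sets above the filter lay lower for Pttg1 (-0.30 and -0.28), Cdc20 (-0.29) and Bub1b (-0.18). Another of Cdc20 (0.03) stayed in that range. With rfk siRNA a dim further probe set of Pttg1 gave 0.37.

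In the kinetochore group the lowest values came from aof2 siRNA or tranylcypromine, apart from Nuf2. Cenpe, the kinesin that carries chromosomes to the spindle equator, had signals of 1376 with aof2 siRNA, 1704 with rfk siRNA and 774 with tranylcypromine, against 2027 with control siRNA. Its difference of -1.39 with tranylcypromine was the largest in size among the 37 genes in the 3 comparisons with control, and 0.25% of all genes lay lower. The other probe set, with a signal of 1003 with tranylcypromine against 1302 with control siRNA, gave -0.38. Ndc80, which binds microtubules, had 797, 1104 and 633, against 950 with control siRNA, and was lowest with tranylcypromine (-0.59). Nuf2, its partner in the same complex, had 752, 558 and 570, against 678 with control siRNA, and so ran otherwise, at 0.15, -0.28 and -0.25. Cenpa, the histone of the centromere, had 3541, 4455 and 3831, against 4985 with control siRNA, and all 3 lay below control. The mean with its further probe sets, both below the filter, was -0.04 with aof2 siRNA and 0.09 with tranylcypromine. Cenpf, a large kinetochore protein, was at -0.35, 0.06 and -0.16, and one of its further probe sets gave -0.68, -0.26 and -1.04.

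Of the 6 spindle motor and microtubule-binding genes 5 were below control with aof2 siRNA, by -0.44 to -0.23. Kif11, the motor that pushes spindle poles apart, had signals of 1065 with aof2 siRNA, 1673 with rfk siRNA and 982 with tranylcypromine, against 1442 with control siRNA. Its probe sets differed most with tranylcypromine, at -0.55, -0.08 and -1.07. With aof2 siRNA they gave -0.44, -0.10 and 0.03, so 1 of them did not lie below control. Kif4, a chromosome-bound kinesin, had 572, 553 and 633, against 761 with control siRNA, the lowest value coming from rfk siRNA (-0.46). Nusap1, which binds and bundles spindle microtubules, had 3679, 2990 and 4038, against 2440 with control siRNA, so that control siRNA was the lowest of its 4 arrays. The differences were 0.59, 0.29 and 0.73, or 1.51-, 1.23- and 1.65-fold. With arrays centred on their medians the first was 0.52, under 1.5-fold, and a dim second probe set gave 1.61, 1.33 and 1.41. Kif2c, which shortens microtubules, was at -0.23, -0.08 and -0.40, Tpx2, which activates Aurka, at -0.28, -0.11 and -0.12, and Hmmr, a spindle assembly protein, at -0.40, -0.24 and -0.19. The 4 other probe sets of Hmmr above the filter gave -0.41, -0.60, -0.69 and -0.81 with tranylcypromine. With tranylcypromine the further probe sets above the filter also differed in side for Kif2c, at -0.11 and 0.44, and for Tpx2, at -0.35, 0.48 and 0.35.

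All 5 midzone and cytokinesis genes were below control and lowest with aof2 siRNA, and on the other arrays they lay between -0.23 and 0.20. Kif20a, a kinesin of the spindle midzone, had signals of 2350 with aof2 siRNA, 3146 with rfk siRNA and 2919 with tranylcypromine, against 3434 with control siRNA. Anln, the scaffold anillin of the contractile ring, had 4251, 5621 and 5607, against 5260 with control siRNA, and Prc1, which bundles midzone microtubules, had 1533, 1754 and 1839, against 1795 with control siRNA. By these probe sets both were low with aof2 siRNA alone, but a dim further probe set of Anln gave -0.07, -0.42 and -0.10 in the same order. Ect2, which activates RhoA at the cleavage site, stood at -0.10, 0.14 and 0.20, and Kif23, a motor of the centralspindlin complex, at -0.12, 0.14 and -0.03.

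Both chromosome genes were lowest with aof2 siRNA. Mki67, which encodes the proliferation marker Ki-67, had signals of 2966 with aof2 siRNA, 3149 with rfk siRNA and 3036 with tranylcypromine, against 3579 with control siRNA, and the 3 lay close together below control. Top2a, the topoisomerase that untangles sister chromatids, had 5911, 6497 and 7019, against 6162 with control siRNA, a span of 0.25 on the log2 scale.

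Since the control array enters each difference, the order of the 4 arrays was also read without it as reference. The aof2 siRNA array was the lowest of the 4 for 29 of 37 genes, against 22.1% of all genes and 24.4% of bright ones. It was the highest for 1, Nuf2, against 22.0% of all genes. The rfk siRNA array was the lowest for 3 genes (27.0% of all genes), that of tranylcypromine for 4 (28.1%) and the control array for 1 (22.9%). The control array was the highest for 18 of 37, against 25.2%, the rfk siRNA array for 11, against 25.1%, and the tranylcypromine array for 7, against 27.7%. Thus 18 of 37 were below control on all 3 other arrays, against 25.2% of all genes. Between aof2 siRNA and rfk siRNA, a pair without the control array, 33 of 37 were lower with aof2 siRNA, with a median of -0.30, against 48.5% of all genes and a median of 0.01. Here Aurkb (-0.63), Kif11 (-0.65) and Mad2l1 (-0.60) were at least 1.5-fold lower, or 3 of 37 against 3.22%. The further probe sets of Kif11 differed by less than 1.5-fold, at 751 with aof2 siRNA against 898 with rfk siRNA, and 420 against 536. Set against the average of the remaining 3 arrays, 34 of 37 were lower with aof2 siRNA (median -0.24), 8 with rfk siRNA (0.12) and 24 with tranylcypromine (-0.04). Of all genes compared, 47.8%, 50.5% and 50.2% were lower in the same order.

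**Figure D3:**
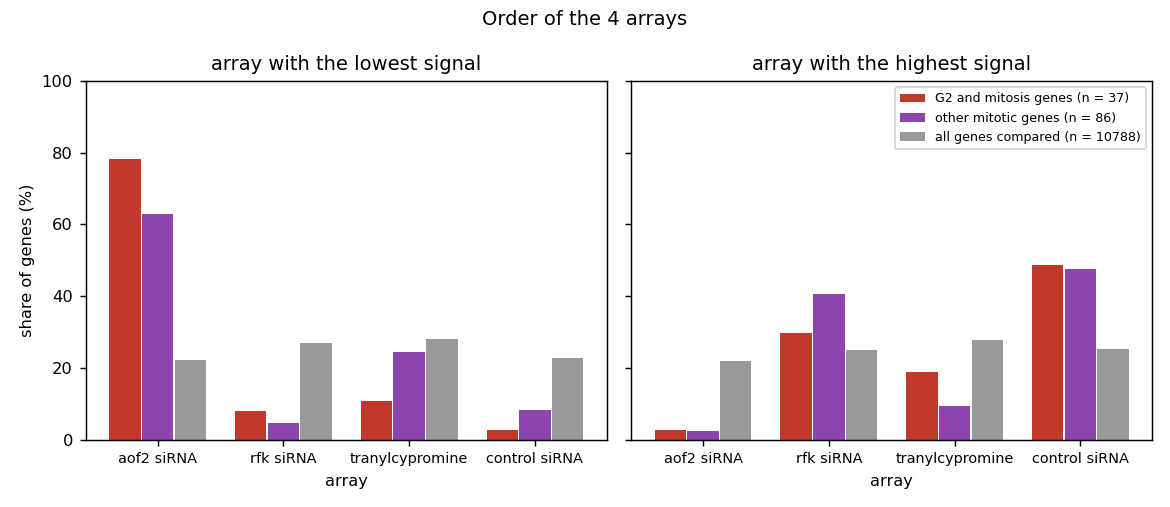
Share of genes (vertical, %) for which each array (horizontal) had the lowest signal (left) or the highest (right), for the 37 G2 and mitosis genes, 86 other mitotic genes and all 10788 genes compared. The aof2 siRNA array was lowest for 78.4%, 62.8% and 22.1% of them.

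The silencing of Aof2 and the inhibitor of its product were also set side by side. Between aof2 siRNA and tranylcypromine 32 of 37 genes were lower with aof2 siRNA, with a median of -0.14, against 52.5% of bright genes and 5393 of all 10788. The 5 genes lower with tranylcypromine were Cenpe, Nuf2, Ndc80, Kif11 and Kif2c. Tranylcypromine minus aof2 siRNA was -0.83 for Cenpe, -0.40 for Nuf2 and -0.33 for Ndc80, all of the kinetochore group. The other probe set of Cenpe was near level, at 1003 with tranylcypromine and 1014 with aof2 siRNA. In that order, further probe sets above the filter gave 764 and 751, and 195 and 420, for Kif11. For Kif2c they gave 553 and 476, and 161 and 102. Hmmr, counted among the 32 at 2285 and 1976, was lower with tranylcypromine by all its further probe sets above the filter. These gave 473 and 670, 275 and 353, 294 and 315, and 82.6 and 96.0. Further probe sets of other genes among the 32 fell on both sides, such as those of Tpx2 (466 and 484, and 116 and 76.4). The count of 32 thus holds for the probe sets used. Among the 31 other kinetochore genes, aof2 siRNA minus tranylcypromine had a median of -0.01. The group medians with aof2 siRNA and tranylcypromine were -0.35 and -0.38 for the kinetochore, -0.42 and -0.09 for kinases and passenger complex, and -0.23 and 0.03 for midzone and cytokinesis. Tranylcypromine against rfk siRNA gave a median of -0.12, with 25 of 37 lower, against 49.3% of all genes.

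Probe sets of the same gene measure the same RNA sample and so describe probe error only. The 37 genes had 80 probe sets, of which 70 passed the filter. Of the 33 that passed and were not the one used, 31 were below control with aof2 siRNA (median -0.28), 20 with rfk siRNA (-0.05) and 26 with tranylcypromine (-0.20). In the 20 genes with several such probe sets, these lay apart by a median of 0.19, 0.18 and 0.28, which is as large as many of the single differences given above. All agreed in being below control for 18 of the 20 with aof2 siRNA, 6 with rfk siRNA and 12 with tranylcypromine. The widest gap with tranylcypromine was 1.04, in Cenpf.

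**Figure D4:**
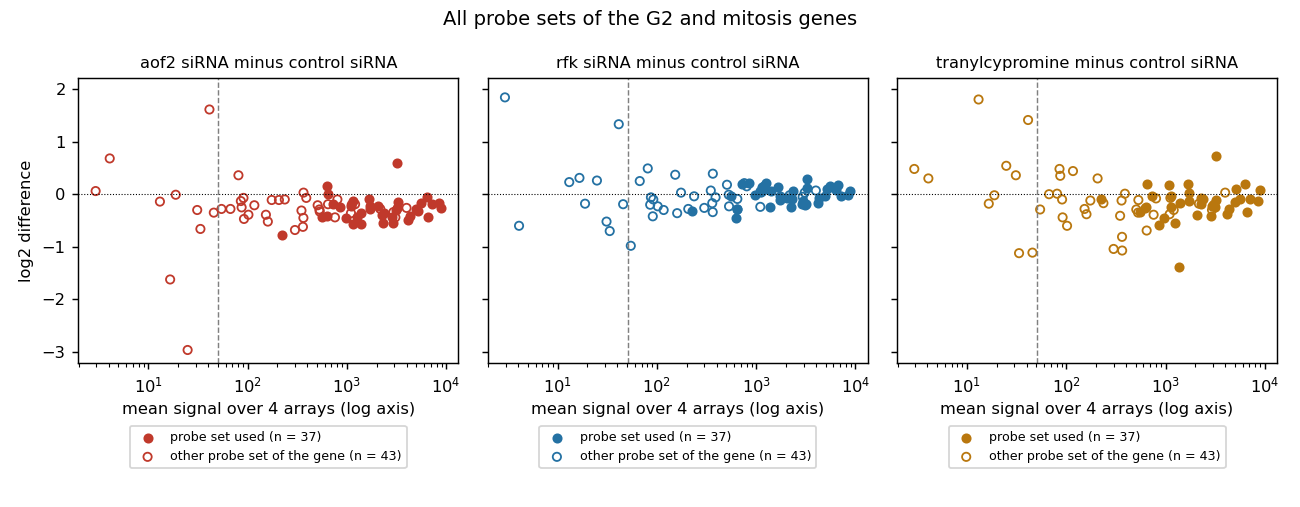
Log2 difference from the control siRNA array (vertical) of the 80 probe sets of the G2 and mitosis genes against their mean signal (horizontal, log axis) for aof2 siRNA, rfk siRNA and tranylcypromine. Filled points are the 37 probe sets used, open points the others, and the dashed line is the filter at 50.9; left of it the points scatter widely, and right of it most lie below 0 with aof2 siRNA.

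Mitotic genes outside the list had medians close to those of the list. In 3 further lists chosen by function, covering condensin and cohesin, other kinetochore genes, and other mitotic kinases, motors and cytokinesis genes, 86 genes were compared. With aof2 siRNA 78 of them were lower, with a median of -0.30, with rfk siRNA 45, with -0.01, and with tranylcypromine 67, with -0.19, beside the shares of all genes given above. The lowest with aof2 siRNA in their lists were Ncapd2, a condensin subunit, at -0.62, and Wapl, which releases cohesin, at -0.61, the centromere protein gene Cenpm at -1.01 and Spdl1, which brings dynein to kinetochores, at -0.83, and Lmnb1, lamin B1, at -0.74 and the kinase gene Melk at -0.57. The highest were Stag2, a cohesin subunit, at 0.12 and Smc3, of cohesin, at -0.16, Zw10, a checkpoint gene, at 0.40 and Ska3, of the kinetochore, at 0.23, and Psrc1, a spindle protein, at 0.06 and Cdkn3, a phosphatase, at -0.02.

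The 18 subunits and regulators of the anaphase-promoting complex, most of which are known to be made throughout the cycle, lay nearer to control. With aof2 siRNA 10 (55.6%) were lower, against 50.7% of all genes and 54.5% of bright ones, with a median of -0.06. The lowest were Fbxo5, an inhibitor of the complex made in S phase and G2, at -0.57 and the ubiquitin enzyme gene Ube2s at -0.37. The highest were the core subunit genes Cdc23 and Cdc27, at 0.60 and 0.41. Both also lay above control with rfk siRNA (1.02 and 0.18) and tranylcypromine (0.38 and 0.22). Other core subunit genes fell on both sides with aof2 siRNA, from -0.33 (Anapc1) to 0.09 (Anapc13). Of 46 S phase and replication genes 45 were lower with aof2 siRNA (median -0.26), 20 with rfk siRNA (0.01) and 37 with tranylcypromine (-0.23). Over all genes compared the shares were 50.7%, 51.5% and 52.0%. Cdc6, which loads the replicative helicase, had signals of 347 with aof2 siRNA, 668 with rfk siRNA and 453 with tranylcypromine, against 692 with control siRNA, and Ccne1, cyclin E, stood at -0.77 with aof2 siRNA. Pola2, a polymerase subunit, at 0.07 and Rrm1, of ribonucleotide reductase, at -0.02 were the highest of that list. Among 16 regulators of G2 and M phase transcription 12 were lower with aof2 siRNA (median -0.13), against 50.7% of all genes. Mybl2, the activator B-Myb, was lowest at -0.79, with signals of 118, 186 and 185 against 204 with control siRNA, followed by E2f4 at -0.76 from signals near the filter (46.0 with aof2 siRNA, against 77.8 with control siRNA). Nfyc, an NF-Y subunit, at 0.26 and Rbl2, the repressor p130, at 0.14 were the highest.

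**Figure D5:**
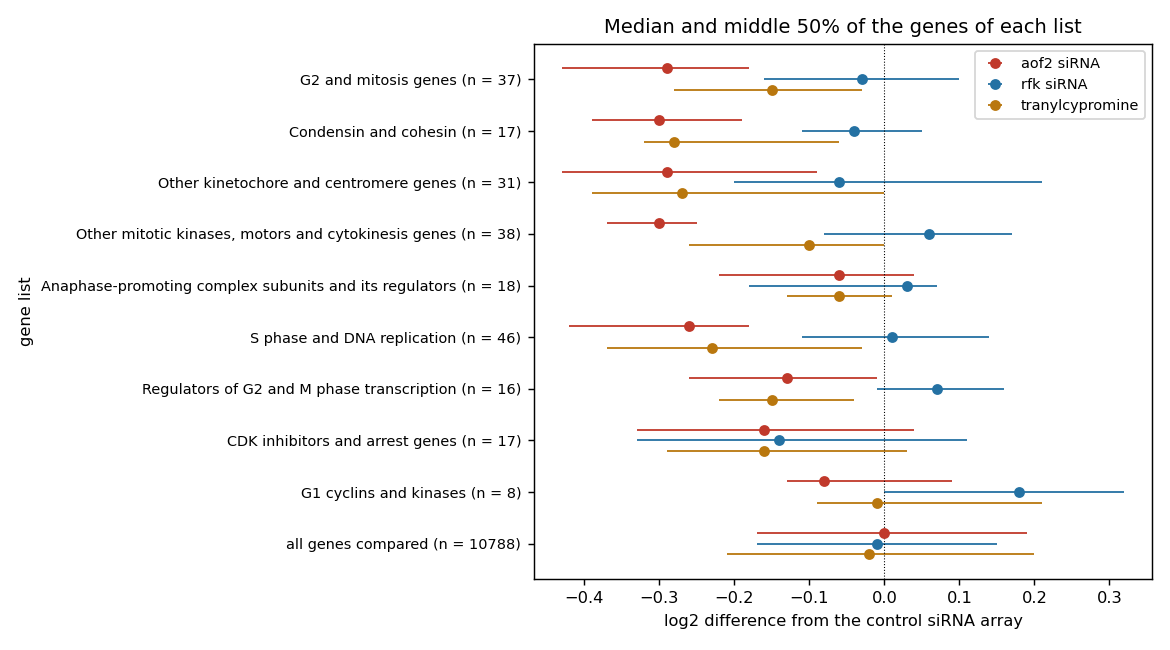
Median log2 difference from the control siRNA array (points) and the middle 50% of genes (lines) for the G2 and mitosis genes, 8 further cell cycle lists and all genes compared, for aof2 siRNA, rfk siRNA and tranylcypromine. With aof2 siRNA the medians lie between -0.30 and -0.26 for the mitotic and S phase lists, and at -0.06 for the anaphase-promoting complex.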

How the data were processed

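The deposited intensities are MAS5 signals per probe set, named in the submitters' processing notes, with detection calls, version and scaling target not given in the sources used here. After trimming 2% of probe sets at either end, each array averaged 500.003, so the authors had scaled them. Dim probe sets have no lower limit in MAS5 and scatter widely on the log2 scale, and equal trimmed means hide differences in RNA per cell. Of 45101 probe sets, 34958 had 1 gene symbol in the platform annotation, 932 several and 9211 none, and 34754 had an identifier that RefSeq lists for GRCm38.p6. Groups came from the labels, with 1 array each.

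The log2 of each signal was used without an offset, and differences were described by counts and medians, with no test. The steps were tested on simulated data. The members and lists were chosen with earlier results of these data known. Named were Kdm1a, Rfk, Ccnb1, the 3 members per role group with the largest difference in size, Cdk1, Plk1, Foxm1, Mki67, Top2a and Nusap1, and the 2 highest and 2 lowest of each other list with aof2 siRNA; the remaining members are given to account for the whole list. The promoters shown were at most 4 with both motifs upstream, by size of difference with aof2 siRNA, plus Nusap1. Alternatives were median centring, quantile normalization, an offset of 50, no filter and a stricter one, the mean of all probe sets, leaving out probe sets whose identifiers end in _x_at or _s_at, setting an array against the average of the remaining 3, and fold thresholds below and above 1.5. Python 3.11.15, NumPy 2.4.6, pandas 2.3.3 and matplotlib 3.10.9 were used.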

Additional observations from a re-analysis of the deposited data

How the results depend on the processing

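With 1 array per condition, no spread between cultures is known, and each limit here concerns the processing alone. With aof2 siRNA the median stayed between -0.37 and -0.24 and 33 to 35 members were lower under every alternative that changed signals, genes or reference. Set against the average of the remaining 3 arrays, the rfk siRNA median was 0.12, with 8 members and 50.5% of all genes lower, and the tranylcypromine median -0.04. Counts at a fold threshold moved most, since few members reach it. For aof2 siRNA, those at least 1.5-fold lower were 5 after median centring, which also moved the median of all genes to -0.081. They were 3 with the mean of all probe sets and 2 without _x_at and _s_at probe sets. With the stricter filter, which leaves out Foxm1, they were 0, against 1.22% of all genes that passed it. Those higher were 0 after median centring, with the offset and against the 3 other arrays. For tranylcypromine, those lower were 1 with quantile normalization, with the offset and against the 3 other arrays, where 0 were higher. For rfk siRNA, 2 were higher with the mean of all probe sets. The shares of all genes at 1.5-fold under the alternatives other than the stricter filter are not given here, so these counts stand without them. At 0.32 on the log2 scale 16, 1 and 9 members were lower with aof2 siRNA, rfk siRNA and tranylcypromine. At 2-fold 0 were lower or higher with aof2 siRNA, against 58 lower and 174 higher of all 10788 genes. With tranylcypromine 1 was lower and 0 higher, against 102 and 241 of all genes. Beyond what these settings do by construction, the cause was not tested. Of the values of named members, 39 moved by more than the median gap between probe sets of a gene and 483 did not, and 0 of those past 1.5-fold changed direction.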

Other observations

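Genes that act in G1 lay on both sides of control. Of 8 G1 cyclins and kinases 6 were lower with aof2 siRNA, against 50.7% of all genes, with a median of -0.08. But Ccnd1, which encodes cyclin D1, had signals of 6378 with aof2 siRNA, 6024 with rfk siRNA and 7788 with tranylcypromine, against 4830 with control siRNA. Cdk6, a partner kinase of the D cyclins, had 1043, 1052 and 1106, against 766 with control siRNA. Both were thus above control on all 3 arrays. The lowest with aof2 siRNA were Cdc25a, the phosphatase that activates Cdk2, at -0.40 and Cdk4 at -0.17.

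Of 17 CDK inhibitor and arrest genes 11 (64.7%) were lower with aof2 siRNA, against 50.7% of all genes and 54.5% of bright ones. Their median was -0.16. The highest were Sesn1, a stress-inducible sestrin, at 0.52 and Gadd45g, a growth arrest gene, at 0.50. The lowest were Cdkn2d, an inhibitor of Cdk4 and Cdk6, and Pkmyt1, the kinase that inhibits Cdk1, both at -0.45.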
